A study of Mus musculus with 6 samples.

Results

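The genes described here carry glucose from the cell surface to lactate or into glycogen and back. They are 35 genes of glucose uptake, glycolysis, lactate transport and glycogen metabolism, taken by their symbols from a deposited table of 21959 genes, and all 35 passed the filter on low counts. They cover 18 steps, of which 11 are represented by several isoforms and 7 by 1 gene. One symbol, Aldoa, stands on 2 lines of the table, and the line with the higher counts was used.

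Full-thickness dorsal skin of male C57BL/6 mice was profiled by poly(A) RNA sequencing. The mice were wild type and 7 weeks old, and their backs were shaved while the hair follicles were in telogen, the resting phase of the hair cycle. The Vehicle group (n = 3) received 30% dipropylene glycol in 70% water, and the Reba group (n = 3) received 3% rebamipide, a quinolinone drug used for gastric mucosal protection, both applied to the skin once a day for 7 days. Per the study's methods each library came from a separate mouse, so the tests measure the spread between 3 mice on each side.

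Cells take up glucose through facilitative transporters, trap it with hexokinase and split it by glycolysis to pyruvate, which is reduced to lactate or burned in mitochondria. Many of these steps have isoforms that differ between tissues: the M-type enzymes such as Pfkm, Pgam2, Eno3 and Pygm predominate in skeletal muscle, the L-type enzymes such as Pfkl, Pygl and Gys2 are classically known from liver, and Slc2a4 encodes the insulin-responsive transporter GLUT4 of muscle and fat. Glycogen synthase and the branching enzyme build the glucose store, and glycogen phosphorylase breaks it down.

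The promoters of an M-type and a non-muscle isoform of the same step are shown for phosphoglycerate mutase and glycogen phosphorylase, as examples of steps whose isoforms followed different patterns across the libraries. Enolase and phosphofructokinase did so too, and their promoters are not printed. Each line gives the 250 bases before the RefSeq transcription start on the strand of the gene (GRCm38.p6), 5′ to 3′. Capitals mark matches, on either strand, to CAGCTG (an E-box bound by myogenic factors), to ACGTG (the core of the hypoxia response element) and to the wider form of the MEF2 motif.
Pgam1 (chr19:41911621-41911870, plus strand): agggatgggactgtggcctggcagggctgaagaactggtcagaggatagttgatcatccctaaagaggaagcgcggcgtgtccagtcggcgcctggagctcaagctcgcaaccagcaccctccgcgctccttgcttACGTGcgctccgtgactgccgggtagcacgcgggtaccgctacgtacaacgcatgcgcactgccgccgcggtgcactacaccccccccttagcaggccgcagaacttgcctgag
Pgam2 (chr11:5803797-5804046, minus strand): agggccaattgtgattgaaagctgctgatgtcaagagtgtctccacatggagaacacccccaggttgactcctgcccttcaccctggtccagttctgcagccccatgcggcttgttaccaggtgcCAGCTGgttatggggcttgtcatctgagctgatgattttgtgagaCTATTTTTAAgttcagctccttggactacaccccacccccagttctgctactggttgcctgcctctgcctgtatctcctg
Pygl (chr12:70227684-70227933, minus strand): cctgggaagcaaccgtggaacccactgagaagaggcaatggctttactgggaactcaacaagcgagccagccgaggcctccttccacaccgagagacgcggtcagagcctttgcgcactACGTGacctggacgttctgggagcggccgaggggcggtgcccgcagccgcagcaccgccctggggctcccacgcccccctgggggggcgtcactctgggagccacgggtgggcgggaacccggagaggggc
Pygm (chr19:6384158-6384407, plus strand): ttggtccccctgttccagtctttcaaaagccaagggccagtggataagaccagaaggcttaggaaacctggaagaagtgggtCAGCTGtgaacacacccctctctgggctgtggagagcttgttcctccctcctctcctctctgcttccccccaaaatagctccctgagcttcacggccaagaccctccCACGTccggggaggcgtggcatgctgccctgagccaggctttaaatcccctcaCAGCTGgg

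CAGCTG was found once before Pgam2 and at 2 places before Pygm, and not in these windows of Pgam1 or Pygl. Among the other members Gys1, Pfkfb1, Pfkfb2, Gpi1, Pkm and Ugp2 held it in a promoter, while the M-type genes Eno3 and Pfkm did not. It is held by 13% of 32851 RefSeq promoters of the same length. ACGTG, held by 16.6% of them, occurred once each before Pgam1, Pygl and Pygm. The stricter form of the MEF2 motif (0.508% of promoters) matched no member, and this was the form searched first. A wider form allows either pyrimidine at its first base and either purine at its last (2.92% of promoters). It was added after the sequences had been read, and it matched Pgam2 once and 1 promoter of Pfkfb1 once. AAGGTCA, a nuclear receptor half-site (4.08% of promoters), was in none of the 4 windows. The 32 members with an entry had 50 promoters in all, of which 8 held CAGCTG, 20 ACGTG, 2 the wider MEF2 form and 2 AAGGTCA. Slc2a3, Slc2a4 and Gys2 are named here without a promoter.

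The libraries held 38676018 to 39915276 counts in the Vehicle group and 32709801 to 34706852 in the Reba group, and the members took 0.56% to 1.61% and 1.22% to 2.16% of them. The make-up of the tissue differed between libraries. The summed level of 10 adipocyte markers was 2128.2 to 5876.6 CPM (counts scaled to the library size after TMM normalization) in Vehicle and 14040.8 to 27282.4 CPM in Reba, and that of 9 brown adipocyte markers was 201 to 353 and 4972 to 13038.6 CPM, with Ucp1 at 0 counts in every Vehicle library. The 7 basal keratinocyte markers summed to 4275.7 to 5760 CPM in Vehicle and to 1379.4, 714 and 15 CPM in Reba 1 to 3. In the library labelled Reba 3, which GEO describes as skin, Krt5 had 4 counts, and 3 of the 7 basal and 3 of the 8 suprabasal keratinocyte markers were at 0. The 8 endothelial and the 6 red cell markers were also higher in every Reba library. The 10 fast skeletal muscle markers overlapped between groups, with 6282.7, 26774.4 and 32373.6 CPM in Vehicle 1 to 3 and 41626.4, 8715.8 and 321 CPM in Reba 1 to 3. The 6 slow muscle markers summed to 7.75, 13.5 and 2.07 CPM in Vehicle and 290, 129 and 7.02 CPM in Reba, which overlapped, while their mean log2 CPM was higher in every Reba library. The 8 markers of the growing hair follicle gave 12858.7, 5391.3 and 147 CPM in Vehicle and 752, 3.47 and 0.229 CPM in Reba, so they were high in Vehicle 1 and 2 although the mice were shaved in telogen. Leukocyte and fibroblast markers overlapped in their summed levels. Mitochondrial genes took 2.59% to 5.36% of the counts in Vehicle and 13.28% to 21.96% in Reba, and the 10 most abundant genes 7.2% to 10.56% and 20.23% to 30.36%. In such bulk samples fewer cells of a type and less RNA per cell cannot be told apart, and the part of these differences in the results below was not tested, apart from a fit with the fast muscle score as a covariate.

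Among the 35 members, 15 rose in Reba skin and 0 fell at an adjusted p-value under 0.05 (edgeR quasi-likelihood test, Benjamini-Hochberg over 14875 genes), against 14.1% of all genes tested that rose and 6.51% that fell. The 15 were Slc2a4, Hk2, Gpi1, Pfkl, Pfkfb1, Pfkfb3, Pgam1, Eno1, Ldhb, Slc16a1, Gys1, Gys2, Pygb, Pygl and Gbe1. The normalized levels of 18 members were higher in every Reba library than in any Vehicle library (24.5% of all genes) and those of 2 members, Pfkfb2 and Aldoc, were lower (24.0% of all genes). The median log2 fold change of the members was 0.81, beside -0.17 over all genes tested. Scaling by total counts alone moved the median of all genes to -0.78 and that of the members to 0.24, and the members then split into 10 higher and 2 lower (Pfkfb2 and Aldoc), against 8.46% and 25.2% of all genes, while the fold changes of Slc2a3, Hk1, Pfkp, Aldoa and Tpi1, which were not called, turned negative. The calls lost under total counts were Hk2, Gpi1, Pfkfb1, Gys1 and Pygb, and limma on log2(FPKM + 1) lost Hk2, Gys1 and Pygb.

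The 15 calls depended on single libraries. Without the library labelled Reba 3, 9 members rose (Pfkl, Pfkfb3, Pgam1, Eno1, Ldhb, Slc16a1, Gys2, Pygl and Gbe1), against 6.6% of all genes in that fit, and the adjusted p-values of the other 6 (Slc2a4, Hk2, Gpi1, Pfkfb1, Gys1 and Pygb) were 0.0538 to 0.102. Without Vehicle 2 or without Reba 2, edgeR called 0 members, with adjusted p-values of the 15 from 0.0747 to 0.17 and from 0.0573 to 0.16. These fits called 0 of 14964 and 1 of 15335 genes in the whole table, so the 0 is not particular to the members, and the smallest log2 fold change of the 15 was 1.01 and 1.12. At an unadjusted p under 0.05, 16 and 17 members passed in these fits, beside 4116 of 14964 and 4062 of 15335 genes. DESeq2 without the same libraries called 17 and 13 members higher, beside 2662 of 17670 and 1952 of 17765 genes. Limma-voom called 5 and 5 members higher, beside 1.4% and 1.67% of all genes. All 15 members kept a positive fold change in every fit.

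**Figure D1:**
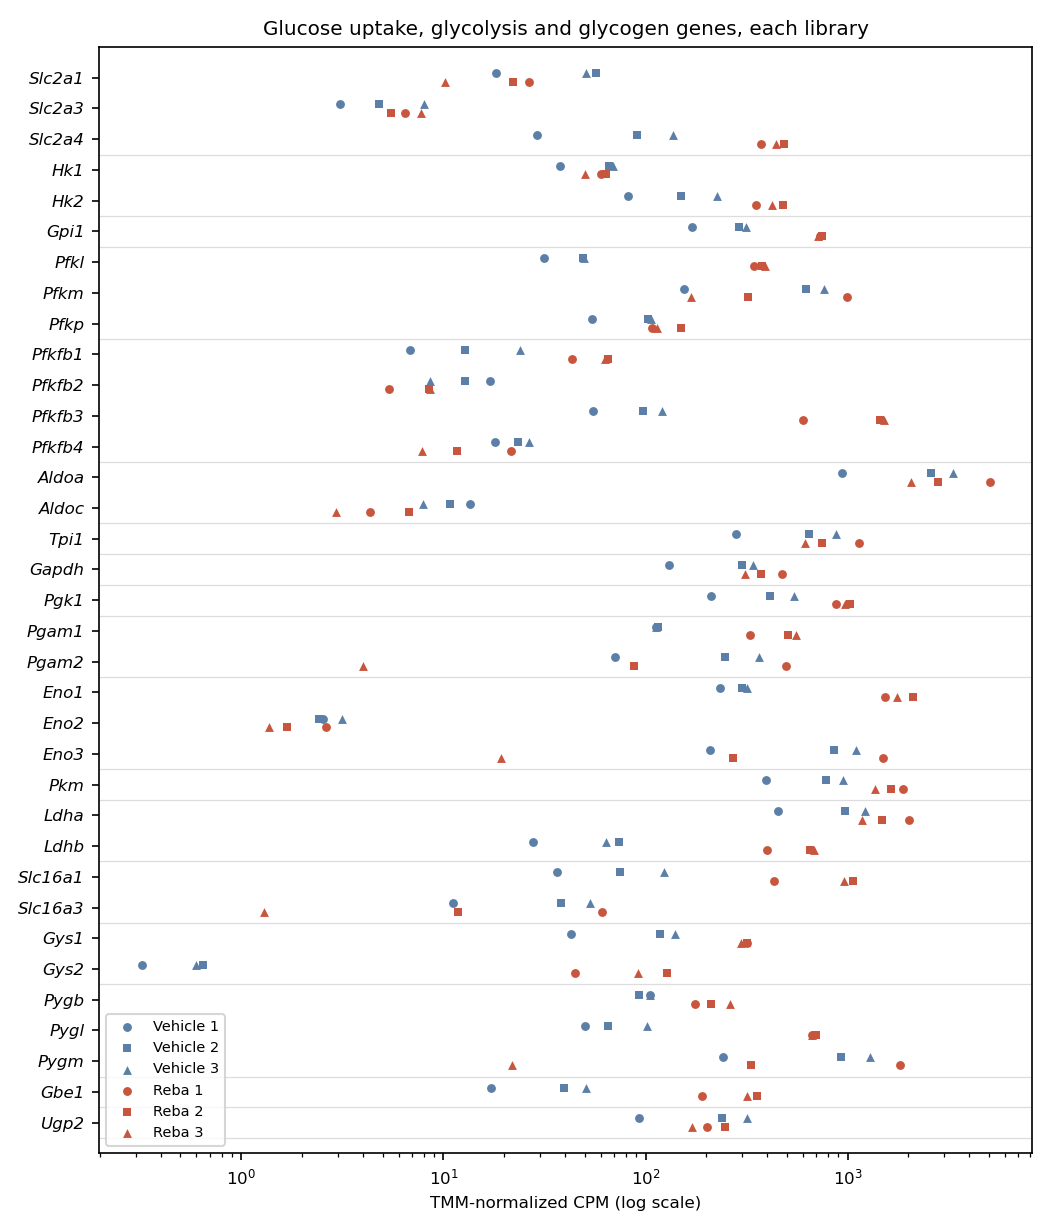
TMM-normalized CPM (log scale) of the 35 members in each library, with Vehicle in blue and Reba in red, markers giving the replicate and grey lines separating the steps. The groups do not overlap for 20 members, while Pfkm, Pgam2, Eno3, Slc16a3 and Pygm spread widely within the Reba group.

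**Figure D2:**
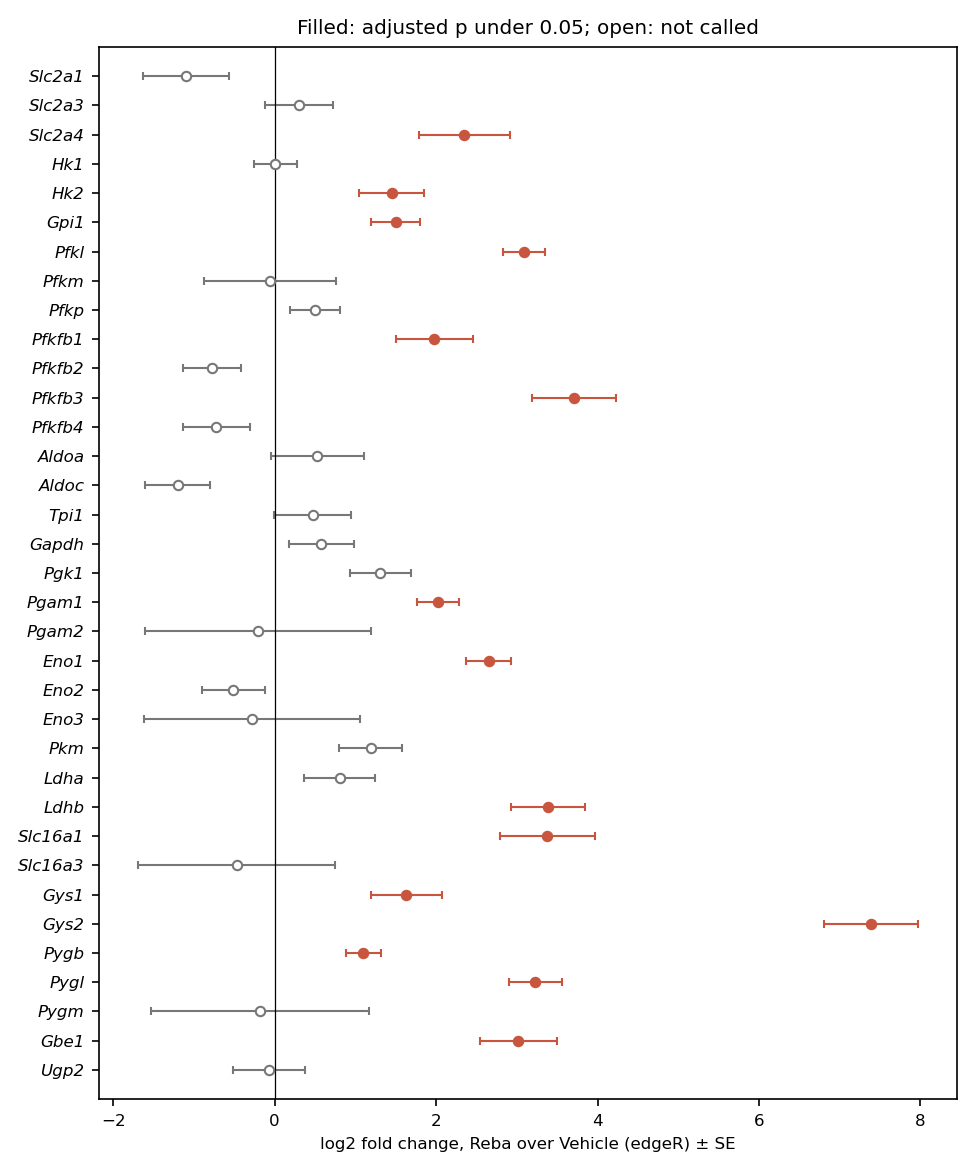
Log2 fold change of Reba over Vehicle for each member with its standard error (edgeR), filled where the adjusted p-value is under 0.05. The 15 filled points all lie above 0, with Gys2 farthest out at 7.39, and the widest error bars belong to Pgam2, Pygm, Eno3 and Slc16a3.

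Of the 3 glucose transporters among the members, the GLUT4 gene Slc2a4 rose and the others did not pass. Slc2a4 stood at 29.0, 90.7 and 136 CPM in Vehicle 1 to 3 and at 373, 483 and 442 CPM in Reba 1 to 3. Every Reba library lay above every Vehicle library, and the log2 fold change was 2.35 ± 0.56 (SE, adjusted p = 0.0344). Slc2a1, which encodes the ubiquitous transporter GLUT1, measured 18.2, 56.8 and 50.8 CPM in Vehicle and 26.5, 22.1 and 10.2 CPM in Reba, a log2 difference of -1.10 ± 0.53 (adjusted p = 0.175) with overlapping groups. Slc2a3, the high-affinity transporter GLUT3, was low in both groups at 3.08 to 8.06 and 5.53 to 7.75 CPM. Within each library Slc2a4 made up 59.7%, 60.7% and 71.4% of the FPKM (reads per length and library size) of the 3 transporters in Vehicle and 92.7%, 95.2% and 97.0% in Reba. Slc2a1 made up 26.6% to 37.7% in Vehicle and 2.22% to 6.53% in Reba. The exact permutation p was 0.1 for both shares, the smallest that 3 against 3 libraries allow.

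Hexokinase traps glucose as its phosphate. Hk2, the insulin-regulated form of muscle and fat, had 81.9, 149 and 227 CPM in Vehicle and 353, 477 and 421 CPM in Reba (log2 fold change 1.45 ± 0.40, adjusted p = 0.0496). That call is at the edge of the threshold and was lost in 12 of 16 alternative fits. Hk1, the widely expressed form, stood at 37.9 to 69.0 CPM in Vehicle and 50.1 to 63.5 CPM in Reba, and its log2 difference of 0.01 ± 0.27 changed sign between scalings. The Hk2 share of the step was 75.5% to 82.5% in Vehicle and 89.3% to 92.3% in Reba (exact permutation p = 0.1). Gpi1, the isomerase that follows, measured 169, 289 and 313 CPM in Vehicle and 727, 749 and 712 CPM in Reba, and rose by 1.5 ± 0.30 on the log2 scale (adjusted p = 0.0217). The Gpi1 call was lost in 4 of 16 alternative fits, with a fold change of 0.90 under total counts (adjusted p = 0.055).

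Phosphofructokinase commits the sugar to glycolysis, and 1 of its 3 isoforms passed the test. The liver-type gene Pfkl had 31.4, 49.0 and 49.6 CPM in Vehicle and 344, 376 and 389 CPM in Reba, with a log2 fold change of 3.09 ± 0.26 (adjusted p = 0.00939). The Reba libraries lay within a narrow range, far above all Vehicle libraries. The muscle-type gene Pfkm had 155, 624 and 766 CPM in Vehicle and 988, 323 and 167 CPM in Reba, which overlapped (log2 difference -0.06 ± 0.82, adjusted p = 0.959). Pfkp, the platelet type, had 54.4 to 106 CPM in Vehicle and 108 to 150 CPM in Reba, which did not overlap but did not pass the test (0.50 ± 0.31, adjusted p = 0.261) and changed sign under total counts. Pfkl made up 3.04% to 8.53% of the FPKM of the step in Vehicle and 14.5%, 34.3% and 49.9% in Reba 1 to 3, while Pfkm went from 84.1% to 93.7% in Vehicle to 83.2%, 58.9% and 42.9% in Reba. Both shares had an exact permutation p of 0.1.

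The bifunctional Pfkfb enzymes make and remove fructose 2,6-bisphosphate, the main activator of phosphofructokinase. Pfkfb3, the form with the highest ratio of kinase to bisphosphatase activity, measured 54.9, 97.2 and 120 CPM in Vehicle and 603, 1443.8 and 1511 CPM in Reba. Its log2 fold change was 3.71 ± 0.52 (adjusted p = 0.0104). Pfkfb1, known from liver and muscle, was less abundant at 6.85, 12.8 and 23.8 CPM in Vehicle and 43.3, 65.4 and 62.7 CPM in Reba (1.98 ± 0.48, adjusted p = 0.0358), a call lost in 6 of 16 alternative fits. Both genes separated the groups completely. Pfkfb2, the heart form, had 17.1, 12.8 and 8.55 CPM in Vehicle and 5.37, 8.5 and 8.55 CPM in Reba, where Vehicle 3 and Reba 3 were equal to the digits shown (-0.78 ± 0.36, adjusted p = 0.158). Pfkfb4 overlapped, at 17.9 to 26.5 CPM and 7.82 to 21.5 CPM (-0.72 ± 0.41, adjusted p = 0.231). Pfkfb4 was called lower by edgeR without Reba 1 (-1.21, adjusted p = 0.0402) and by limma on log2(FPKM + 1) (-1.08, adjusted p = 0.0401). Within the family the Pfkfb3 share of FPKM was 48.4% to 56.9% in Vehicle and 83.4% to 91.6% in Reba, and the Pfkfb4 share 19.2% to 24.5% and 0.735% to 4.62% (exact permutation p = 0.1 each).

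In the middle of the pathway, from aldolase to phosphoglycerate kinase, 0 of the 5 members passed in edgeR, while other fits called Pgk1 and Aldoc. Aldoa, the aldolase of muscle and most other tissues, had the highest mean FPKM of all members in both groups. It measured 943, 2583 and 3308.5 CPM in Vehicle and 5039.5, 2793.5 and 2068 CPM in Reba, which overlapped (log2 difference 0.53 ± 0.58, adjusted p = 0.513). The second line named Aldoa, a short gene model directly upstream, held 184, 555 and 773 counts in Vehicle and 582, 68 and 13 in Reba. Aldoc, the brain form, was lower in every Reba library at 4.31, 6.74 and 2.94 CPM than in Vehicle at 13.5, 10.8 and 7.89 CPM, but missed the threshold (-1.20 ± 0.40, adjusted p = 0.0796). Aldoc was called lower by DESeq2 (adjusted p = 0.0239), with total counts (0.0257), with at least 10 counts in every sample (0.0452) and by limma on FPKM (0.0127). Tpi1, which interconverts the triose phosphates, and Gapdh, which oxidizes glyceraldehyde 3-phosphate, overlapped between groups with log2 differences of 0.47 ± 0.48 and 0.58 ± 0.40 (adjusted p = 0.487 and 0.312). Pgk1, the first ATP-forming enzyme, had 210, 411 and 544 CPM in Vehicle and 879, 1027.9 and 974 CPM in Reba. Its groups did not overlap, and its log2 difference of 1.31 ± 0.38 narrowly missed the threshold (adjusted p = 0.058). Pgk1 was called higher by DESeq2 (adjusted p = 0.0144), by limma-voom (0.0416) and with at least 10 counts in every sample (0.0493).

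At the phosphoglycerate mutase step the non-muscle gene Pgam1 rose from 113, 115 and 113 CPM in Vehicle to 327, 508 and 553 CPM in Reba (2.03 ± 0.26, adjusted p = 0.00993). The muscle gene Pgam2, whose promoter is printed above, had 71.0, 246 and 364 CPM in Vehicle and 496, 87.6 and 4.01 CPM in Reba. Its libraries spread over both groups without a common direction (-0.21 ± 1.40, adjusted p = 0.920). The Pgam1 share of FPKM was 40.3%, 16.5% and 11.6% in Vehicle and 21.8%, 71.1% and 98.3% in Reba, and these overlapped (exact permutation p = 0.2).

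At the enolase step, too, the gene that rose was not the muscle isoform. Eno1, the alpha enolase of most tissues, measured 234, 301 and 319 CPM in Vehicle and 1524, 2094 and 1751.8 CPM in Reba (2.65 ± 0.28, adjusted p = 0.00939). Eno1b, a retrotransposed copy of Eno1 outside the 35 genes that can share its reads, also rose, from 204 to 239 counts in Vehicle to 784 to 876 counts in Reba (2.77, adjusted p = 0.00939), so how reads were split between the copies is uncertain. Eno3, the muscle beta enolase, had 209, 856 and 1093.8 CPM in Vehicle and 1493.1, 271 and 19.3 CPM in Reba (-0.28 ± 1.34, adjusted p = 0.891). Eno2, the neuronal form, lay at 1.37 to 3.16 CPM in all libraries. The Eno1 share was 8.6% to 26.5% of the step in Vehicle and 24.8%, 71.4% and 96.6% in Reba, which overlapped through Reba 1 (exact permutation p = 0.2).

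**Figure D3:**
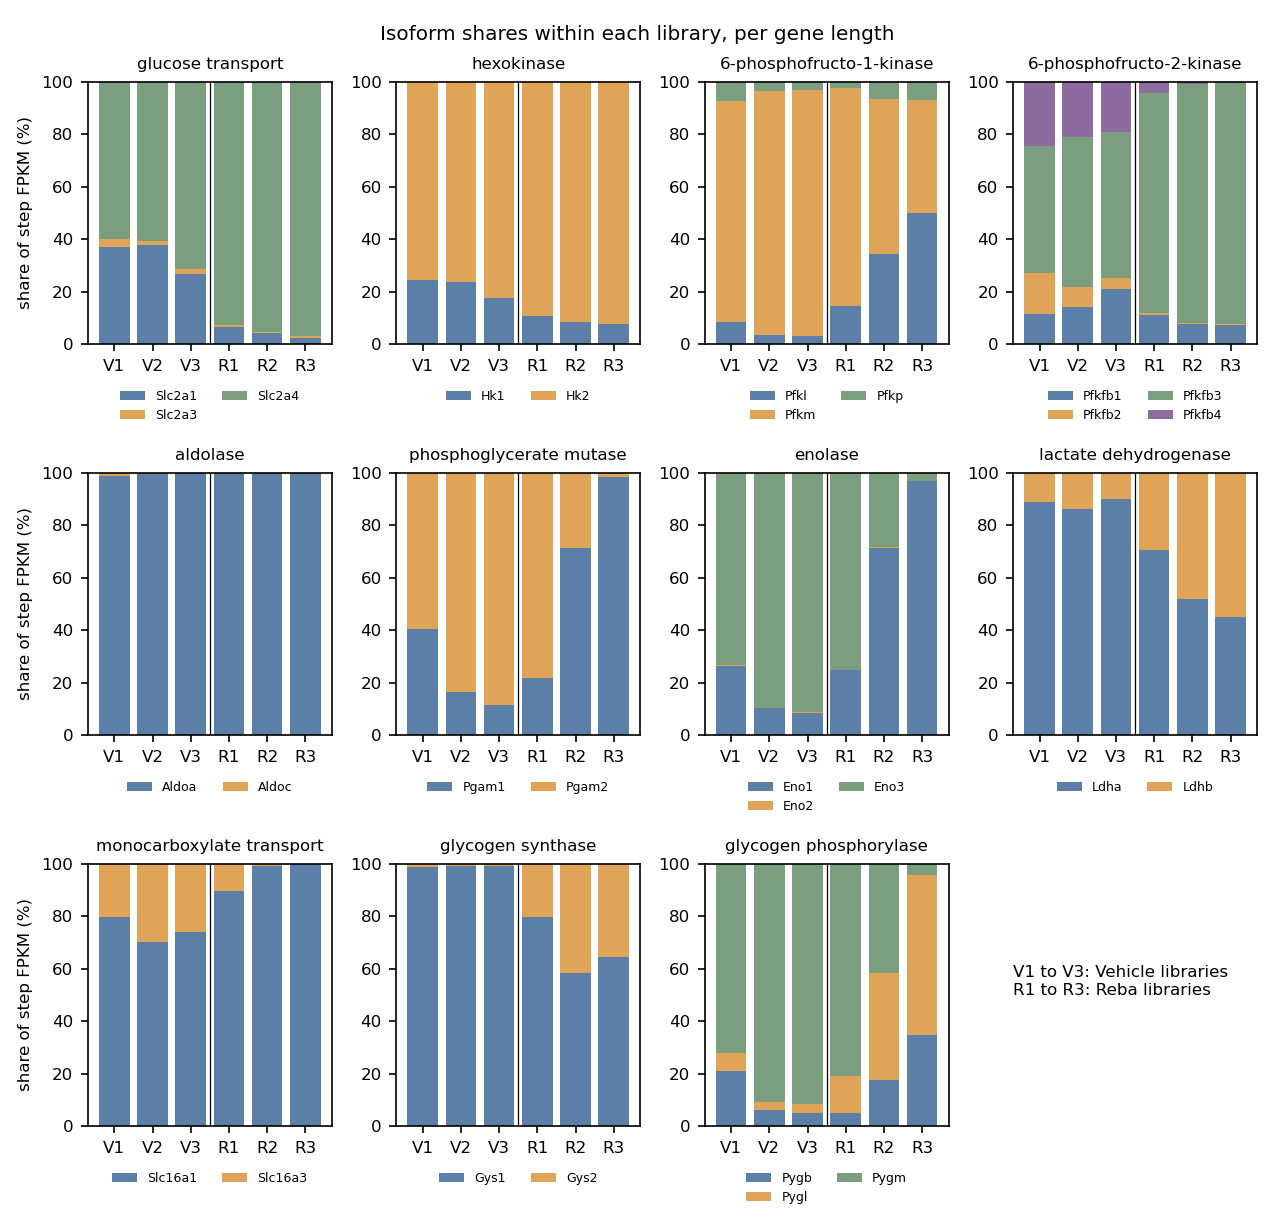
Share of each isoform in the summed FPKM of its step (percent, stacked to 100), one bar per library, Vehicle (V1 to V3) left and Reba (R1 to R3) right of the line. Slc2a4, Hk2, Pfkl, Pfkfb3, Ldhb, Slc16a1, Gys2 and Pygl hold a larger share in every Reba library than in any Vehicle library, while Pgam1 and Eno1 exceed all Vehicle libraries in R2 and R3 but not in R1.

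The last steps make pyruvate and exchange it with lactate. Pkm, pyruvate kinase, had 396, 786 and 953 CPM in Vehicle and 1868.5, 1638.5 and 1370.3 CPM in Reba, groups that did not overlap but gave an adjusted p of 0.0745 (1.19 ± 0.39), while DESeq2 called Pkm higher (adjusted p = 0.0233). Ldhb, the heart-type subunit of lactate dehydrogenase, rose from 27.7, 73.6 and 63.9 CPM to 399, 653 and 680 CPM (3.39 ± 0.46, adjusted p = 0.0103). Ldha, the muscle-type subunit, had 453, 972 and 1223 CPM in Vehicle and 2013.1, 1471.7 and 1173.3 CPM in Reba, which overlapped (0.81 ± 0.44, adjusted p = 0.215). Ldhb made up 9.93% to 13.8% of the FPKM of the step in Vehicle and 29.5%, 48.3% and 55.0% in Reba (exact permutation p = 0.1).

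Lactate crosses the membrane on monocarboxylate transporters. Slc16a1, which encodes MCT1, had 36.4, 74.8 and 124 CPM in Vehicle and 432, 1063.2 and 955 CPM in Reba, a log2 fold change of 3.38 ± 0.59 (adjusted p = 0.0162). Slc16a3, which encodes MCT4, the exporter of glycolytic fibers, spread from 11.1 to 52.9 CPM in Vehicle and gave 60.7, 11.8 and 1.30 CPM in Reba (-0.47 ± 1.22, adjusted p = 0.795). The Slc16a1 share was 70.1% to 79.8% in Vehicle and 89.5%, 99.1% and 99.9% in Reba (exact permutation p = 0.1).

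Among the 35 members the largest fitted fold change belonged to glycogen synthesis. Gys2, the liver-type glycogen synthase, had 16, 32 and 28 counts in Vehicle and 1362, 3266 and 2407 counts in Reba, or 0.321, 0.65 and 0.599 CPM against 44.8, 127 and 91.9 CPM. The fitted log2 fold change was 7.39 ± 0.58 (adjusted p = 0.00939). Gys1, the muscle-type synthase, measured 42.7, 118 and 140 CPM in Vehicle and 316, 319 and 298 CPM in Reba (1.63 ± 0.44, adjusted p = 0.0484), a call lost in 11 of 16 alternative fits. Gys2 provided 0.763% to 1.33% of the synthase FPKM in Vehicle and 20.4%, 41.8% and 35.7% in Reba, so Gys1 still made up more than Gys2 in every library. Gbe1, the branching enzyme, rose from 17.2, 39.3 and 50.5 CPM to 191, 357 and 317 CPM (3.02 ± 0.48, adjusted p = 0.0132). In the table's GRCm39 positions Gys2 lies on chromosome 6 from 142368339 to 142418835 and Ldhb on the same minus strand from 142435975 to 142453683. Ugp2, which makes the UDP-glucose that glycogen synthase uses, had 93.2, 238 and 316 CPM in Vehicle and 202, 248 and 169 CPM in Reba (-0.07 ± 0.45, adjusted p = 0.922).

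Glycogen phosphorylase releases glucose 1-phosphate. The liver-type gene Pygl had 50, 64.9 and 102 CPM in Vehicle and 669, 700 and 667 CPM in Reba (3.23 ± 0.33, adjusted p = 0.00939). The brain-type gene Pygb also rose, from 105, 93.2 and 105 CPM to 175, 211 and 263 CPM (1.10 ± 0.22, adjusted p = 0.0221). The Pygb call was lost in 5 of 16 alternative fits, and its fold change was 0.46 with total counts and 0.44 by limma on FPKM. The muscle-type gene Pygm had 242, 927 and 1285.1 CPM in Vehicle and 1809.9, 333 and 21.9 CPM in Reba (-0.18 ± 1.35, adjusted p = 0.930). Pygl made up 2.97% to 6.95% of the FPKM of the step in Vehicle and 13.9%, 40.8% and 61.1% in Reba (exact permutation p = 0.1), and Pygm 72.2% to 91.6% and 80.8%, 41.6% and 4.29% (exact permutation p = 0.2). Over the 28 isoforms of the 11 steps with several, 19 shares did not overlap between groups. Each had an exact permutation p of 0.1, which is 0.147 after adjustment over the 28. Shares of 1 step sum to 100 and are not independent of each other. Shares were not computed over all genes, whose normalized levels did not overlap for 24.5% (higher in Reba) and 24.0% (lower).

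The 4 M-type genes Pfkm, Pgam2, Eno3 and Pygm, of which 0 were called and whose median log2 difference in edgeR was -0.20, ordered the libraries as the fast muscle markers did, except that Pfkm was higher in Reba 3 than in Vehicle 1. Limma-voom gave -0.17, -1.70, -1.56 and -1.50 for them, and limma on log2(FPKM + 1) -0.77, -2.23, -2.12 and -2.02, also without a call. For every 1000 CPM of the 10 summed markers there were 11.3, 9.2 and 11.2 CPM of Pgam2 in Vehicle and 11.9, 10.1 and 12.5 CPM in Reba. Pgam2 itself ranged from 4.01 to 496 CPM over the same libraries. The same ratio was 33.3, 32.0 and 33.8 for Eno3 in Vehicle and 35.9, 31.1 and 60.2 in Reba, and 38.5, 34.6 and 39.7 for Pygm in Vehicle and 43.5, 38.2 and 68.2 in Reba. Both ratios were highest in Reba 3, where the muscle markers were lowest. Pfkm gave 23.3 to 24.6 in Vehicle and 23.7, 37.1 and 522 in Reba. Eno1 and Pygl were high in all 3 Reba libraries at marker levels from 321 to 41626.4 CPM. With the fast muscle score as a covariate 12 members were called higher, against 10.3% of all genes in that fit. Hk2, Pfkfb1 and Gys1 then missed the threshold (adjusted p = 0.0662, 0.0556 and 0.0543), although their log2 fold changes of 1.53, 2.01 and 1.81 were no smaller than without it. The adipocyte, brown adipocyte, endothelial and red cell markers given above were also higher in every Reba library. Their part in the rises was not tested.

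**Figure D4:**
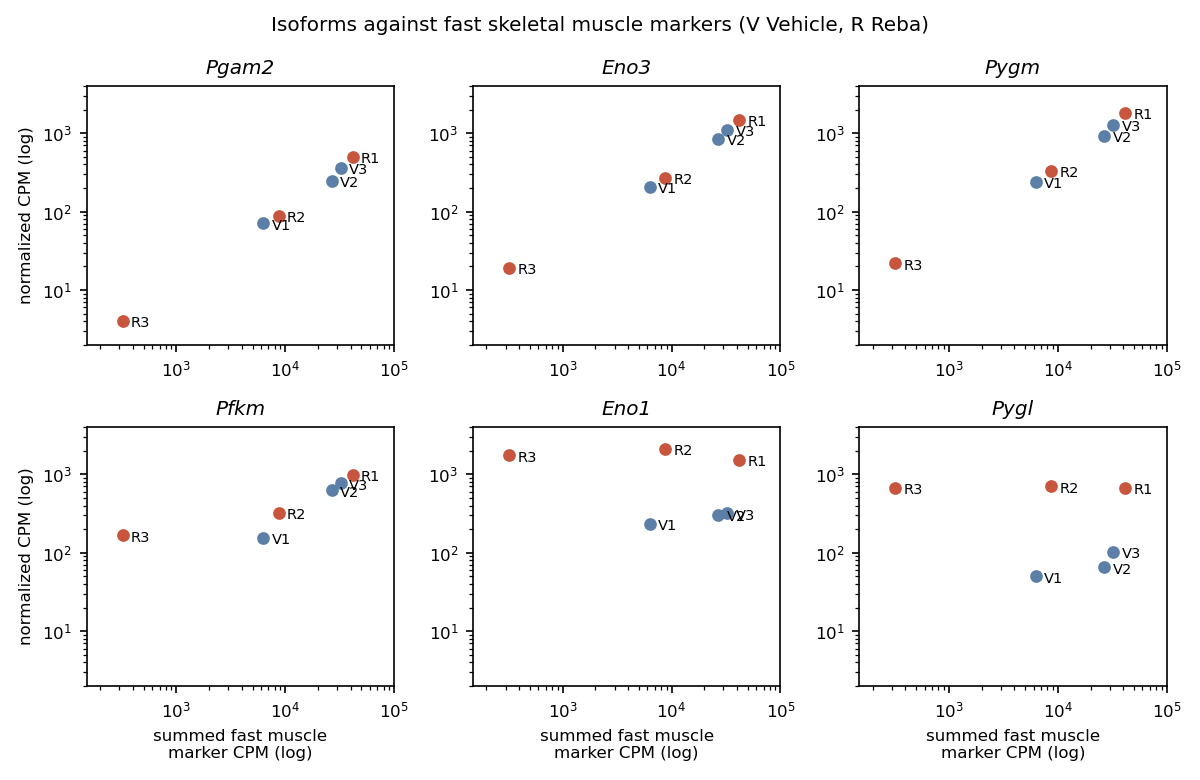
Normalized CPM of 6 members against the summed CPM of 10 fast skeletal muscle markers, both on log scales, one point per library (V Vehicle, R Reba). Pgam2, Eno3, Pygm and Pfkm order the libraries as the markers do except for Pfkm in V1 and R3, while Eno1 and Pygl are higher in all Reba libraries whatever the marker level.

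Other genes of the same pathways were read from the same fit. Of 70 listed, 69 were in the table and 60 were tested: 17 rose, 3 fell (Myc, Emb and Pgm2l1) and 40 did not pass, with a median log2 fold change of 0.41. Over all genes tested 14.1% rose and 6.51% fell, with a median of -0.17. Without Vehicle 2 or without Reba 2, edgeR called 0 of them higher and 0 lower, in fits that called 0 and 1 genes in the whole table. Without Reba 3 it called 8 and 0, against 6.6% and 2.49% of all genes. Higher calls numbered 1 of 10 other genes of glucose transport (the transporter Slc2a8, in a list that also holds Tbc1d1 and Tbc1d4, regulators of GLUT4 traffic), 4 of 14 glycolytic and gluconeogenic enzymes, 3 of 6 pyruvate and lactate carriers, 6 of 22 glycogen genes and 3 of 8 sugar-sensing regulators. Pck1, phosphoenolpyruvate carboxykinase of glyceroneogenesis and gluconeogenesis, rose from 99.1 ± 64.2 to 5935.4 ± 2370.6 CPM (SD, n = 3 each, log2 fold change 5.90). Mpc1, a subunit of the mitochondrial pyruvate carrier, rose from 10.7 ± 4.55 to 92.7 ± 30.3 CPM (3.12). Ppp1r3d, a glycogen-targeting subunit of protein phosphatase 1, rose from 5.39 ± 1.08 to 49.2 ± 16.6 CPM (3.19). G6pc3, the ubiquitous glucose-6-phosphatase, went from 13.3 ± 0.94 to 38.0 ± 6.73 CPM (1.51), and Phka2, the liver-type phosphorylase kinase subunit, from 27.8 ± 2.28 to 69.3 ± 12.6 CPM (1.32). Txnip, which restrains glucose uptake, rose from 286 ± 156 to 1303.1 ± 217 CPM (2.19), and Bsg, the chaperone of the monocarboxylate transporters, from 274 ± 30.5 to 517 ± 41.3 CPM (0.91).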

How the data were processed

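Poly(A) RNA libraries of dorsal skin from 3 Vehicle and 3 Reba mice were analysed. The authors deposited 1 table with raw read counts per gene, which are whole numbers without normalization, and FPKM, which equal the deposited counts divided by gene length and library total. The submitters' processing notes name fastp 0.22.0, HISAT2 2.1.0, HTSeq 0.9.1 and GRCm39. Use of strand in counting is not given in the sources used here.

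The members and lists were chosen with earlier results of these data known. All members are named. Of the wider lists, up to 5 genes with the smallest p among those called with a mean of at least 50 counts, and the 3 with the highest mean FPKM, are named; Myc, Emb, Pgm2l1, Slc2a8, Tbc1d1 and Tbc1d4 were named after their values were seen. Counts were fitted in R 4.3.3 with edgeR 4.0.16 (filterByExpr, TMM, quasi-likelihood test, Benjamini-Hochberg over 14875 genes). Levels are CPM after TMM. The fits were tested on simulated data. Isoform shares used FPKM within a library and a two-sided exact permutation test. Alternatives used DESeq2 1.42.0, limma 3.58.1, other scalings and filters, and left out single libraries. Same-group libraries were not copies of each other (chi-square over its degrees of freedom, 83.1 to 742.3). A count of 3 corresponds to 0.0601 to 0.117 CPM on this scale, which covers counting error only. Promoters and their motifs came from a RefSeq table of another build (GRCm38.p6), and motifs were chosen with results known.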

Additional observations from a re-analysis of the deposited data

How the results depend on the processing

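The 15 higher calls kept a positive direction in all fits, and 9 of them (Pfkl, Pfkfb3, Pgam1, Eno1, Ldhb, Slc16a1, Gys2, Pygl and Gbe1) passed in the 14 planned fits other than those without Vehicle 2 or Reba 2. Other tools, scalings and filters gave 10 (total counts) to 17 (DESeq2) higher members. In those 2 fits 8.46% and 14.9% of all genes were higher. Leaving out 1 library gave 0 to 15 by edgeR, against 0.0% to 18.3% of all genes. DESeq2 with each library left out, added after the data were seen, gave 13 to 17. Over all genes these DESeq2 fits called from 1952 of 17765 (without Reba 2) to 3628 of 17765 (without Reba 1) higher. Limma-voom, added likewise, gave 5 without Vehicle 2, 5 without Reba 2 and 9 without Reba 3. Of all genes 1.4%, 1.67% and 5.94% were higher there. Replicate numbers did not pair the libraries (correlations 0.011, -0.041 and 0.022). With a replicate block 13 members rose, against 9.63% of all genes, and 1 wider pathway gene fell, against 5.75%.

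Lower members numbered 0 by edgeR, against 6.51% of all genes. In either direction 18 members had an unadjusted p under 0.05 in that fit, beside 5901 of 14875 genes. Other fits gave 1 by DESeq2, 2 by total counts, 1 with at least 10 counts in every sample and 3 by limma on log2(FPKM + 1). Of all genes 14.3%, 25.2%, 11.9% and 36.4% were lower in these fits, in that order. The study's thresholds gave 1, and no share over all genes was computed for them. EdgeR without single libraries gave 0 to 1. The 1 was without Reba 1, where 12.8% of all genes were lower. DESeq2 without Vehicle 1, Vehicle 3, Reba 1 and Reba 2 gave 1, 2, 4 and 1. Of all genes 11.5%, 13.6%, 23.9% and 8.3% were lower there. Wider pathway genes that rose, 17, were 11 by total counts, 11 by limma on FPKM and 0 to 18 without single libraries. Of all genes 8.46%, 11.2% and 0.0% to 18.3% rose in these fits. Limma-voom gave 1 without Vehicle 2, 2 without Reba 2 and 8 without Reba 3, against 1.4%, 1.67% and 5.94% of all genes. Wider pathway genes that fell, 3, were 7 by DESeq2, 7 by total counts, 8 by limma on FPKM and 6 by the study's thresholds. Without single libraries they were 0 to 3 by edgeR, 6, 6 and 10 by DESeq2 (without Vehicle 1, Vehicle 3 and Reba 1), and 0, 5, 0 and 0 by limma-voom (without Vehicle 2, Vehicle 3, Reba 2 and Reba 3). Of all genes 0.0% to 12.8% fell by edgeR, 11.5%, 13.6% and 23.9% by DESeq2, and 0.0468%, 9.16%, 0.0913% and 1.75% by limma-voom.

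Signs that reversed belonged to members that were not called. By total counts they were Slc2a3 (-0.30), Hk1 (-0.60), Pfkp (-0.12), Aldoa (-0.012) and Tpi1 (-0.098). By limma on FPKM they were Hk1 (-0.50), Pfkp (-0.07), Aldoa (-0.0042) and Tpi1 (-0.055). Hk1 also gave -0.0034 by DESeq2, -0.0024 by RLE, -0.075 by upper quartile, -0.015 without a filter, -0.069 with at least 10 counts. With single libraries left out, values ran from -0.25 to 0.16 for Hk1 (-0.017 without Reba 1, -0.058 without Reba 2), -0.0024 to 0.74 for Slc2a3, -1.06 to 0.37 for Pfkm, -2.30 to 0.37 for Pgam2, -2.30 to 0.30 for Eno3, -2.37 to 0.098 for Slc16a3, -2.20 to 0.40 for Pygm and -0.46 to 0.32 for Ugp2. With the muscle covariate Pfkm gave 0.47, Eno3 0.01, Pygm 0.09 and Ugp2 0.19, and Ugp2 gave 0.087 by limma-voom and 0.087 with the replicate block. The cause was not tested. The count of 19 isoform shares without overlap was 18 on CPM and 19 to 24 without single libraries.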
